A study of Mus musculus with 2 samples.

Results

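The G2 and mitosis genes are 42 genes whose products take cells from the end of DNA replication through division, listed by name for their known function. The rule used no measured value, but the list was drawn up with earlier results of these data known. All 42 were found among the 54146 gene rows of the deposited tables, and all 42 had at least 200 UMIs over both libraries, the fewest being 492. A UMI (unique molecular identifier) is a random tag that marks 1 captured transcript. The study compared mouse ES cells from the inner cell mass, labelled as untreated and named wild-type (WT) by their title, with ES cells labelled as a *Lin28a* knockout (AKO), and there was 1 inDrop library for each genotype. inDrop encloses single cells in droplets and tags their transcripts with a barcode for the cell. Per the methods the WT cells were the transfected clone a2.1 and the knockout cells the clone a3.5, made by Cas9 with a guide to the second exon of *Lin28a* and puromycin selection, so that each genotype is 1 clone. Both cultures had been kept for 2 days on gelatin with mouse embryonic fibroblast feeders in LIF/2i medium.

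Entry into mitosis is driven by the kinase CDK1 bound to cyclin A or B, and polo-like and Aurora kinases then build the spindle. Condensins and topoisomerase II shape the chromosomes, kinetochores attach them to microtubules, and the spindle checkpoint holds back the anaphase-promoting complex (APC/C) until every chromosome is attached. The transcripts of these genes accumulate late in the cell cycle under promoters in which a CCAAT box and the cell cycle genes homology region (CHR) are common, and mouse ES cells are known for fast cycling with short gap phases.

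With limits of at least 500 UMIs and at most 20% mitochondrial UMIs per barcode, 1856 WT cells (11639256 UMIs, median 6140 per cell) and 1622 AKO cells (9340855 UMIs, median 5064) were kept. *Lin28a* itself stood at 107 CPM (counts for every 1000000 UMIs of the library; 1242 UMIs) in WT and at 36.6 CPM (342 UMIs) in AKO, a ratio of 0.343. Since the guide cuts within the gene a transcript can remain, but the source of the *Lin28a* UMIs in AKO was not tested. All 8 ES cell markers, such as *Pou5f1* and *Nanog*, were detected in both libraries, with a summed level of 4274 CPM in WT and 4429 CPM in AKO. The 13 fibroblast markers summed to 2219 and 1290 CPM, and 41 WT and 21 AKO cells were collagen-rich, with at least 0.5% of their UMIs on *Col1a1*, *Col1a2* and *Col3a1*. With 1 library a genotype there is no replicate and no test, the genotype and any other difference between the 2 cultures cannot be told apart, and all intervals are exact 95% intervals that cover counting error only. Barcodes are numbered within each library, so barcodes shared between the libraries could not be counted.

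The promoters of the members were read first, for the motifs named above as common in such genes. A high share of these motifs is therefore tied to the function the set was chosen by. RefSeq promoters of GRCm38.p6, each 300 bases from 250 before to 50 after a transcript start, were given for 36 of the 42 members. They were searched on both strands for the CHR, TTTGAA, and for CCAAT. The CHR was present in 28 of the 36 (77.8%), against 20.2% of all 27025 genes with such a promoter. CCAAT was present in 28 of the 36 as well, against 41.1% of all genes, and 24 members (66.7%) held both, against 7.97%. A first base of the CHR lay within 50 bases of the start in 25 of the 36 (69.4%), against 5.72% of all genes. In the 53 DNA replication genes with a promoter the CHR was present in 15.1%, and in 107 further G2 and mitosis genes in 43.9%. The pair of motifs overlapped in the promoter of *Cdca8* alone. A match is a description of the letters and not a measured site.

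The 5 promoters below are those of the members on which the comparisons turn, and capitals mark the CHR and CCAAT on either strand. *Kif20b*, chr19:34922108-34922407 (plus strand), had the lowest ratio between the libraries and *Plk1*, chr7:122159185-122159484 (plus strand), the highest. *Ube2c*, chr2:164769679-164769978 (plus strand), and *Cdk1*, chr10:69352863-69353162 (minus strand), made up the pair with the highest correlation over WT cells. *Cenpf*, chr1:189688037-189688336 (minus strand), was among the members that followed the other 41 most closely. *Kif20b* carried 2 CHRs in tandem just after the start and no CCAAT, *Plk1* 1 of each, *Cdk1* 2 CHRs and 3 CCAAT boxes, *Cenpf* 1 and 2, and *Ube2c* 1 and 6, of which 2 on opposite strands overlap. Of the other members at either end, *Cenpe* and *Bub1* held CCAAT and no TTTGAA, and *Birc5* neither. TTTGAA was the only form of the CHR searched for. *Mki67* and *Ckap2* held CCAAT and a CHR about 100 bases before the start. *Smc2* and *Aurka* held CCAAT and a CHR within 50 bases after the start, and no promoter was given for *Smc4* and *Aurkb*.
Kif20b promoter: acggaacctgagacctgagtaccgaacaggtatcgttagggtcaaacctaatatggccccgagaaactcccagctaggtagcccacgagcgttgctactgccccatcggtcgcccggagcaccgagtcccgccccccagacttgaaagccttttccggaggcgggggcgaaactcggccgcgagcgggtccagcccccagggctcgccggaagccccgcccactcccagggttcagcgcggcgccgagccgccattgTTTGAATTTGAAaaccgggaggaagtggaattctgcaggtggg
Plk1 promoter: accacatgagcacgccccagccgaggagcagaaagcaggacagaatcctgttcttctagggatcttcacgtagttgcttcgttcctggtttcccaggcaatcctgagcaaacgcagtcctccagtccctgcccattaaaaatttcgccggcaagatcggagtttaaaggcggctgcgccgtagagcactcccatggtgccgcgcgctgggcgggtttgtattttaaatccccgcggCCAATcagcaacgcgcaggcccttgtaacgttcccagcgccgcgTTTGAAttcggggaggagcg
Ube2c promoter: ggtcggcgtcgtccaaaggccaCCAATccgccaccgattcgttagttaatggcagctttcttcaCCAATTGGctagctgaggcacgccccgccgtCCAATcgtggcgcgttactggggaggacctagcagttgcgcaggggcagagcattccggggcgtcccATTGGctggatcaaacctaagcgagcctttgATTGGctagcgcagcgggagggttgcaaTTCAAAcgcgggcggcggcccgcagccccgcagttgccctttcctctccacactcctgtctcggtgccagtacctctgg
Cdk1 promoter: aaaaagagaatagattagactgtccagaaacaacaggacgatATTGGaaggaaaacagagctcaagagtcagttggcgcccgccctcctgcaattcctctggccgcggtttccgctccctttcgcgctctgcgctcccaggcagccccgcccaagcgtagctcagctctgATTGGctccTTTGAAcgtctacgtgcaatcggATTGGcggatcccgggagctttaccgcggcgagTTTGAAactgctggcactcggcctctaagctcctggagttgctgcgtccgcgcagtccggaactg
Cenpf promoter: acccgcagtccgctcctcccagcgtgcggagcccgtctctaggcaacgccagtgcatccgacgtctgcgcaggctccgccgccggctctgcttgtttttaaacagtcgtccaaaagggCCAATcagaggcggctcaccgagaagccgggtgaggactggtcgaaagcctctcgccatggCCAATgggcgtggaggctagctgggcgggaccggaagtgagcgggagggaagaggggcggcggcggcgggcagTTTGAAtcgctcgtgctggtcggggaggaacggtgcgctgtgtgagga

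Summed over the 42 members, the level was 5698 CPM in WT (66316 UMIs) and 5047 CPM in AKO (47141 UMIs), a ratio of AKO over WT of 0.886 (0.875 to 0.896). The set did not move as one: 26 members were lower and 16 higher in AKO. Of all 9835 genes with at least 200 UMIs, 4699 were lower and 5136 higher. The median ratio was 0.912 for the members, against 1.01 over all these genes. Past 1.5-fold, 6 members were lower and 0 higher, or 14.3% of the members, where 8.5% of all genes were lower and 6.5% higher past this fold. By counting error alone the interval of the ratio lay below 1 for 22 members, above 1 for 9 and across 1 for 11, where it lay below 1 for 29.2% of all genes and above 1 for 29.9%. At a ratio of 0.8 or less 15 members were lower, against 20.9% of all genes, and 2 were at least 25% higher, against 19.7%. Past 2-fold 1 member was lower, *Kif20b*, against 1.78% of all genes, and 0 were higher, against 1.15%.

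**Figure D1:**
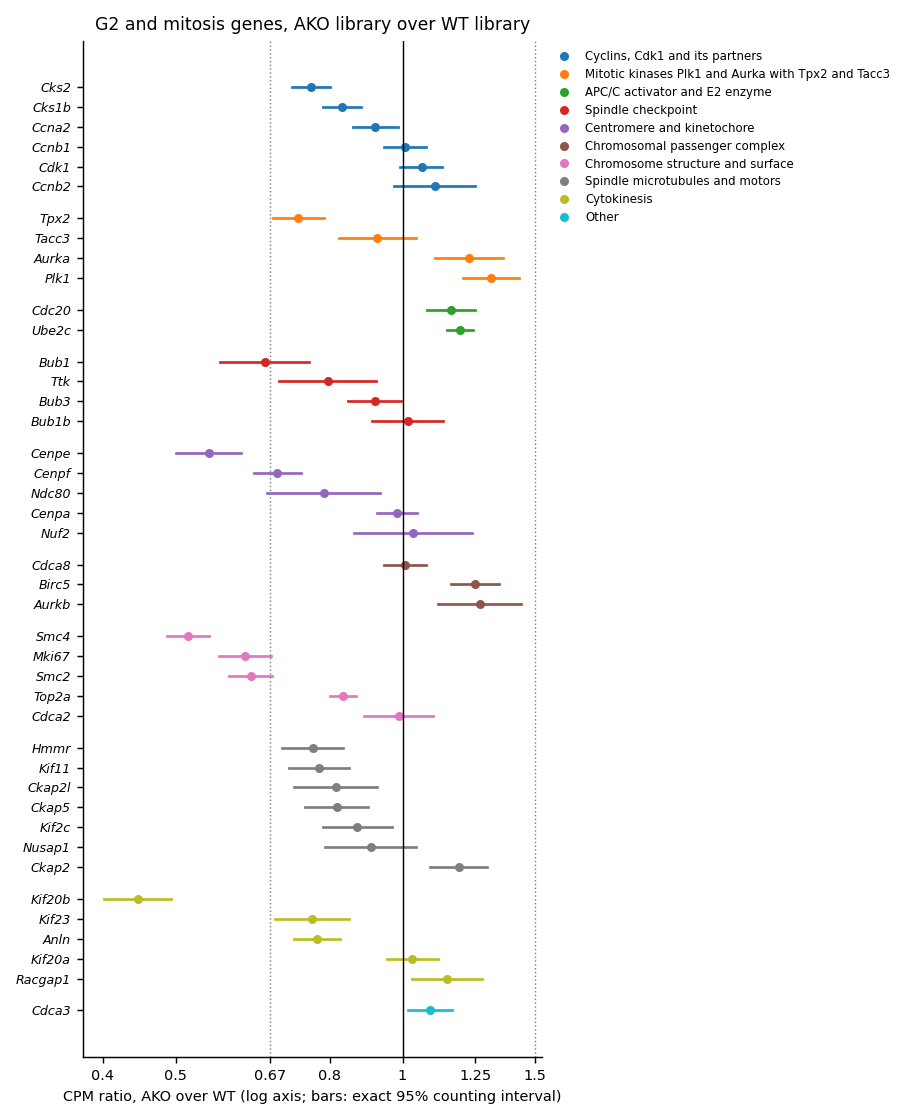
CPM ratio of AKO over WT on a log axis for each of the 42 members, grouped by role. Points are ratios, bars exact 95% counting intervals, and dotted lines mark 1.5-fold in either direction. *Kif20b*, *Smc4*, *Cenpe*, *Mki67*, *Smc2* and *Bub1* lie left of the lower line, and the highest ratio, of *Plk1*, is 1.31.

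The 6 lower members were spread over condensin, kinetochore, checkpoint, cytokinesis and chromosome surface. *Kif20b* (chr19:34922361-34975745, a plus-end kinesin of cytokinesis) had 1462 UMIs, 126 CPM (119 to 132), in WT and 522 UMIs, 55.9 CPM (51.2 to 60.9), in AKO, a ratio of 0.445 (0.402 to 0.492). *Smc4* (chr3:69004738-69034623), a core ATPase of condensin, stood at 269 CPM in WT and 140 CPM in AKO, a ratio of 0.519 (0.486 to 0.554). Its partner in condensin, *Smc2* (chr4:52439243-52488260), stood at 236 and 148 CPM, a ratio of 0.628 (0.588 to 0.67). Thus both core subunits of condensin were lower, *Smc4* by more than *Smc2*. Other condensin genes, outside the set, went both ways. *Ncapg* had a ratio of 0.373, *Ncapg2* 0.408, *Ncapd3* 0.815, *Ncapd2* 1.03, *Ncaph* 1.07 and *Ncaph2* 1.36.

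*Cenpe* (chr3:135212537-135273611), the kinesin that carries chromosomes to the metaphase plate, stood at 111 CPM in WT and 61.7 CPM in AKO, a ratio of 0.553 (0.501 to 0.611). *Mki67* (chr7:135689784-135716361), which encodes the proliferation marker Ki-67 that coats mitotic chromosomes, stood at 157 and 97.3 CPM, a ratio of 0.618 (0.570 to 0.67). *Bub1* (chr2:127801122-127831865), a kinase of the spindle checkpoint, stood at 53.7 and 35.2 CPM, a ratio of 0.656 (0.572 to 0.751). The member just outside the limit was *Cenpf*, a large protein of the outer kinetochore, at 179 and 122 CPM and a ratio of 0.682 (0.634 to 0.734).

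The 6 members with the highest ratios were *Plk1*, *Aurkb*, *Birc5*, *Aurka*, *Ube2c* and *Ckap2*. *Plk1* (chr7:122159439-122169873), the polo-like kinase of mitotic entry and spindle assembly, stood at 89.3 CPM in WT and 117 CPM in AKO, a ratio of 1.31 (1.20 to 1.43). *Aurkb* (chr11:69045647-69051664), the kinase of the chromosomal passenger complex, stood at 42.4 and 53.6 CPM, a ratio of 1.27 (1.12 to 1.44). *Birc5* (chr11:117849251-117855743), which encodes survivin of the same complex, stood at 128 and 160 CPM, a ratio of 1.249 (1.16 to 1.34). None of these passed 1.5-fold.

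*Aurka* (chr2:172356190-172370535), the kinase of centrosomes and spindle poles, had a ratio of 1.22 (1.10 to 1.36). *Ube2c* (chr2:164769898-164778822), the E2 enzyme of the APC/C, stood at 408 CPM in WT and 486 CPM in AKO, a ratio of 1.19 (1.15 to 1.24). *Ckap2* (chr8:22168160-22185819), a protein of spindle microtubules, had a ratio of 1.19 (1.09 to 1.30). Sums by role were higher in AKO for 2 of the roles with several members. *Cdc20* and *Ube2c* of the APC/C together had a ratio of 1.19 (1.14 to 1.23) and the 3 passenger complex genes 1.13 (1.08 to 1.18). The 5 genes of chromosome structure and surface had 0.710 (0.691 to 0.729), the 5 of centromere and kinetochore 0.789 (0.759 to 0.821) and the 5 of cytokinesis 0.795 (0.764 to 0.826). The 4 checkpoint genes had 0.872, the 7 of spindle microtubules and motors 0.873, and *Cdk1* with its cyclins and partners 0.906. *Plk1* and *Aurka* taken with their partners *Tpx2* and *Tacc3* had 0.993, in which *Tpx2* (0.727) and *Plk1* stood at opposite ends.

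Close relatives within the set had like ratios in some pairs and unlike ones in others. *Ccnb1* and *Ccnb2*, the B-type cyclins, had ratios of 1.01 (0.946 to 1.08) and 1.10 (0.975 to 1.249), neither apart from 1 by counting error. *Cks1b* (0.832) and *Cks2* (0.757), the small CDK-binding proteins, were both lower, with intervals that ended at 0.881 and 0.802. *Bub1b*, the pseudokinase relative of *Bub1*, had a ratio of 1.02 (0.912 to 1.13), above the whole interval of *Bub1*. *Kif20a*, a kinesin of the central spindle, had a ratio of 1.03 (0.954 to 1.11), against 0.445 for *Kif20b*. *Cdk1*, the kinase of mitotic entry, stood at 175 CPM in WT and 185 CPM in AKO, a ratio of 1.06 (0.993 to 1.13). *Top2a*, which untangles sister DNA, had the most UMIs of the set and stood at 533 and 444 CPM, a ratio of 0.833 (0.801 to 0.866).

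The order of the ratios followed 2 features of the transcripts that the choice of genes did not use. Over the 42 members the log2 ratio had a Spearman rho of 0.674 with the GC content of the longest protein-coding transcript and of -0.636 with the longest coding length. The 6 lowest members had coding lengths of 3177 to 9531 bases and GC contents of 39.4% to 46.6%, and the 6 highest 420 to 1992 bases and 42.7% to 56.0%. Of the 12 members with a coding length of at least 3000 bases 6 were lower past 1.5-fold (50%, against 16.1% of all protein-coding genes of such length), and of the 30 shorter ones 0, where 6.37% of all genes under 1500 bases and 8.49% of those of 1500 to 3000 were. These correlations run over genes of the same 2 libraries, and within the set GC content and length were themselves related (rho -0.465).

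The relation with GC content was not particular to the members. Over all 8151 protein-coding genes tested, rho was 0.545 with GC content and -0.102 with coding length. Under 42% GC the median ratio was 0.642 for 6 members and 0.776 for 913 genes, and from 50% it was 1.15 for 11 members and 1.11 for 3930 genes. When each ratio was divided by the median ratio of genes of like GC content, in 20 equal groups, the median of the members was 0.998, with 21 below 1 and 21 above. After that step 1 member was lower past 1.5-fold, *Kif20b* at 0.572, and 0 were higher, against 3.94% and 3.51% of all genes. *Smc4* then stood at 0.674, *Cenpe* at 0.695, *Mki67* at 0.696, *Smc2* at 0.807, *Bub1* at 0.851, *Plk1* at 1.14 and *Ckap2*, the highest, at 1.49. Of the roles with higher sums, *Cdc20* and *Ube2c* of the APC/C stood at 1.01 and 1.035. *Aurkb*, *Birc5* and *Cdca8* of the passenger complex stood at 1.21, 1.35 and 0.943. Coding length kept a rho of -0.584 over the members after that step and -0.108 over all genes. The part that transcript GC content and length play in the ratios was not tested.

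**Figure D2:**
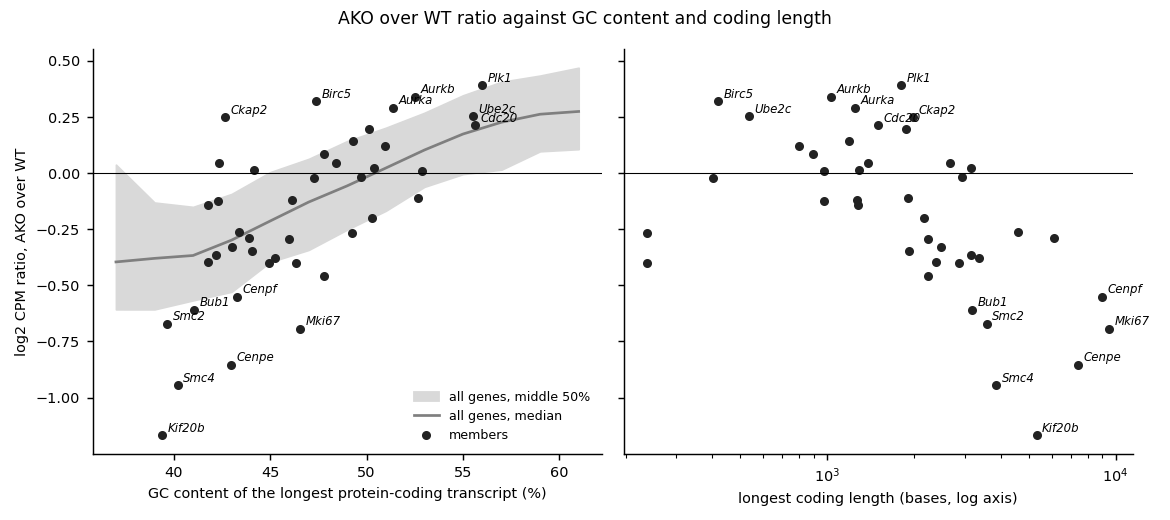
Log2 CPM ratio of AKO over WT for the 42 members (points) against the GC content of the longest protein-coding transcript (left) and the longest coding length (right, log axis). The grey line and band are the median and the middle 50% of all protein-coding genes tested, in steps of 2% GC; the members rise with GC content as all genes do (rho 0.674 and 0.545) and fall with length (rho -0.636).

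Other genes of division and replication gave a frame for these values. Of 123 further G2 and mitosis genes with at least 200 UMIs, 18 were lower past 1.5-fold in AKO (14.6%) and 5 higher (4.07%), where 8.5% and 6.5% of all genes were. Their median ratio was 0.95, and 0.983 after the division by genes of like GC content. Those with the most UMIs were *Tuba1b* (ratio 1.10), *Hmgb2* (0.794), *Ran* (0.908), *Tubb4b* (1.28) and *Tuba1c* (1.26), in which the tubulins were higher and the chromatin protein *Hmgb2* lower. Of 66 DNA replication genes, 8 were lower (12.1%) and 0 higher, with a median of 0.894. After the division by genes of like GC content the replication genes had a median of 0.909, with 47 below 1 and 19 above. *Pcna*, the sliding clamp, stood at 545 CPM in WT and 349 CPM in AKO, a ratio of 0.640 (0.614 to 0.668). The other replication genes with the most UMIs were *Nasp* (0.662), *Mcm2* (1.22), *Dbf4* (0.772) and *Dut* (0.718).

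The members were next read cell by cell. To set cells of different depth side by side, each cell of at least 2000 UMIs was thinned at random to 2000 UMIs, which kept 1642 WT and 1110 AKO cells and left out 214 and 512. A WT cell then held a median of 11 member UMIs (10th to 90th percentile 5 to 18, highest 30) and an AKO cell 9 (4 to 17, highest 32). The variance was 2.34 times the mean in WT and 2.62 times in AKO, where counting alone gives a value near 1. In 39 WT and 12 AKO collagen-rich cells the medians were 1.0 and 0.5, far below the other cells of their library.

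Cells with at least 20 member UMIs, 1% of the thinned depth, made up 5.6% of WT cells (92 cells, 4.54 to 6.83) and 4.32% of AKO cells (48 cells, 3.21 to 5.69). Those shares moved with the random draw: over 20 other draws they ran from 5.48% to 7.37% in WT and from 2.70% to 4.32% in AKO, and the mean over all possible draws was 6.65% and 3.56%. The intervals of the single draw overlapped, and the spread over draws is that of the thinning alone. Cells with 5 or fewer member UMIs were 11.0% of WT (9.49 to 12.6) and 20.6% of AKO cells (18.3 to 23.1). The distributions overlapped, with the AKO cells shifted to lower counts.

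**Figure D3:**
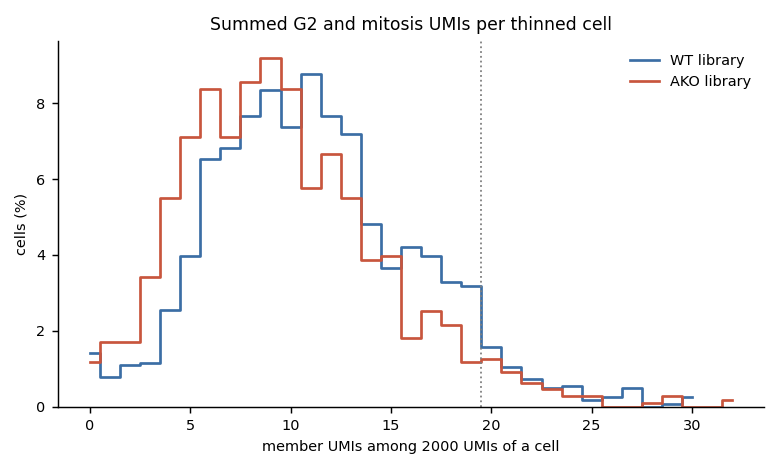
Share of cells (%) by the number of member UMIs among 2000 UMIs of the cell, for 1642 WT and 1110 AKO cells. The dotted line marks 20 UMIs; the medians are 11 in WT and 9 in AKO, and the AKO line lies to the left of the WT line over most of its course.

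Within each library the members rose and fell together over cells, though weakly for any 1 gene. Cells were ranked by the sum of the other 41 members, and the UMIs of the member in the highest 25% of cells were divided by those in the lowest 25%. The ratio was above 1 for 42 of 42 members in both libraries, where it was for 50.7% of the other genes in WT and 53.9% in AKO. Its interval lay above 1 for 36 members in WT and 34 in AKO, where it did for 9.82% and 9.84% of the other genes. The median ratio of the members was 1.99 in WT (410 cells at each end) and 2.34 in AKO (277 cells at each end). The median correlation of a member with the sum of the others was 0.114 in WT and 0.120 in AKO, against 0.00248 and 0.00693 for the other 9793 genes. Correlations as high as the median of the members were reached by 0.766% and 1.07% of those genes. Those genes had at least 200 UMIs and the members at least 492, with no matching for UMIs. The 861 pairs of members had a median correlation of 0.0206 in WT and 0.0253 in AKO, with 658 and 652 pairs above 0. Pairs of other genes were not taken, so these counts have no background beside them. The highest were *Cdk1* with *Ube2c* in WT (0.183) and *Plk1* with *Ube2c* in AKO (0.205), and the lowest values -0.057 and -0.07. Of the pairs of close relatives, *Smc2* with *Smc4* had 0.0877 and 0.167. The others ran from 0.00202 to 0.0185 in WT and from -0.0505 to 0.0699 in AKO. All of these share the cells, the depth and the background of 1 library each. The members' sum also had a correlation of -0.201 in WT and -0.259 in AKO with the sum of 88 ribosomal protein genes. In cells of at least 2000 UMIs the members' share had a Spearman rho of 0.260 and 0.308 with the mitochondrial share. The part of these relations in the co-variation was not tested. The cells ranked included the collagen-rich ones with their few member UMIs, and without them the ratio of the summed members went from 1.94 to 1.78 in WT and from 2.22 to 2.13 in AKO.

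*Nusap1*, a microtubule-bundling protein of the spindle, had the highest ratio by the mean log2 value of both libraries, with 14 UMIs in the lowest and 70 in the highest 25% of WT cells, a ratio of 5.0 (2.79 to 9.61), and a ratio of 4.29 (1.85 to 11.6) in AKO. *Cenpf* had 3.31 (2.53 to 4.38) in WT and 4.08 (2.64 to 6.53) in AKO. *Ube2c* had 2.62 (2.21 to 3.13) and 3.13 (2.58 to 3.82). *Kif23*, a kinesin of the central spindle, had 2.41 (1.55 to 3.86) in WT and 8.17 in AKO, the latter from 49 UMIs over 6. *Kif20b* had 2.07 in WT and 3.83 (2.00 to 7.95) in AKO, the latter from 46 UMIs over 12. Its correlation with the sum of the others in AKO was 0.0926, below the median of the members, so that for this gene the 2 measures ranked it differently.

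The members that followed the others least were *Cdca3*, a trigger of mitotic entry, at 1.24 (0.964 to 1.59) and 1.29 (0.964 to 1.72), and *Tacc3*, a protein of spindle microtubules, at 1.04 and 1.60. *Cdca8*, which encodes borealin of the passenger complex, had 1.32 and 1.28, *Ccnb2* 1.15 and 1.48, and *Birc5* 1.19 and 1.60. *Mki67* had 2.54 (1.92 to 3.39) in WT and 1.59 (1.06 to 2.40) in AKO, and *Top2a* 1.95 (1.69 to 2.26) and 2.06 (1.69 to 2.52). Between the libraries the order of the 42 ratios had a rho of 0.446.

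**Figure D4:**
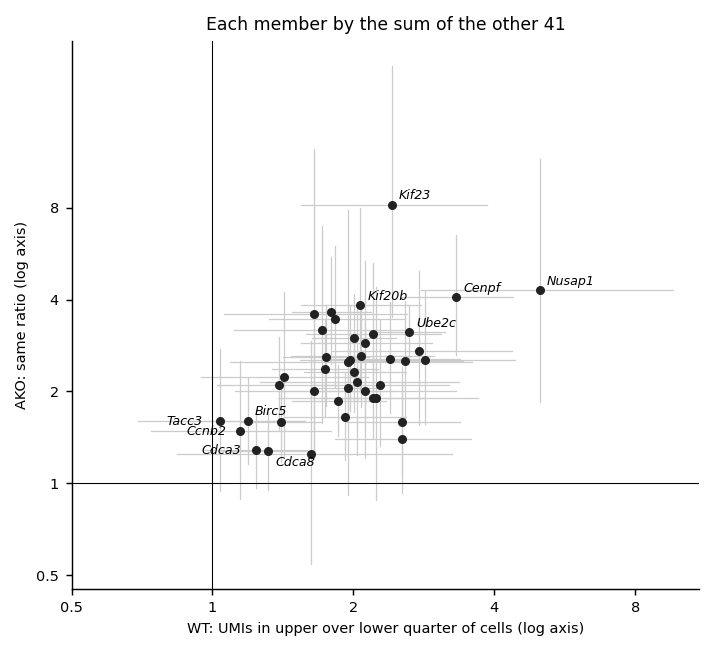
UMIs of each member in the highest over the lowest 25% of cells, ranked by the sum of the other 41 members, in WT (horizontal) and AKO (vertical), both on log axes. Grey bars are exact 95% counting intervals; every point lies above 1 in both libraries, from *Cdca3* to *Nusap1* and *Kif23*.

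By their summed UMIs, the further G2 and mitosis genes rose 1.30-fold from the lowest to the highest 25% of WT cells and 1.31-fold in AKO. The DNA replication genes rose 1.07-fold and 1.02-fold by the same measure, and the summed members 1.94-fold and 2.22-fold. The members' sum had a correlation of 0.121 with the replication sum in WT and 0.0181 in AKO. Outside the set, the 10 genes most like its sum by the mean correlation over both libraries (1642 and 1110 cells) were *Arl6ip1* (0.276), *Calm2* (0.213), *G3bp1* (0.208), *Hmgb2* (0.206), *mt-Nd1* (0.205), *Ptma* (0.198), *Set* (0.192), *Npm1* (0.191), *Pabpc1* (0.191) and *Jade1* (0.189). Of these *Hmgb2* alone was on the list of further G2 and mitosis genes, and *mt-Nd1* is encoded by the mitochondrial genome. The ranking was not matched for UMIs. In WT the 10 genes held from 4720 (*Calm2*) to 69778 UMIs (*Ptma*), where *Tuba1c*, at rank 5 by UMIs in that list, held 3813. Whether genes with fewer UMIs would rank as high at equal counts was not tested.

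RP share, meaning the percentage of all UMIs in a cell that came from 88 ribosomal protein genes, was higher in AKO (median 10.9%) than in WT (9.78%), and the members' level changed along it. In WT the summed level was 3507 CPM (3146 to 3898) in 91 cells under 5% RP share, 6072 CPM (6011 to 6134) in 919 cells of 5% to 10%, 5671 CPM in 615 cells of 10% to 15%, and 4568 CPM (4469 to 4669) in 231 cells of at least 15%. In AKO it was 4766 CPM (4531 to 5009) in 232 cells, 5562 CPM (5482 to 5643) in 432, 5245 CPM in 599, and 3982 CPM (3898 to 4066) in 359. In both libraries the level was highest at 5% to 10% and fell towards cells with the most RP UMIs, and WT was above AKO in the bins from 5% and below it under 5%, where the levels without collagen-rich cells were 4382 CPM (3924 to 4878) in WT and 4904 CPM (4660 to 5157) in AKO, with intervals that overlapped.

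Since RP UMIs are part of the total, the values were also taken over UMIs outside RP genes, and the cells of at least 15% then stood at 5538 CPM in WT and 4827 CPM in AKO, against 6644 and 6105 CPM in those of 5% to 10%. The cells under 5% were shallow, with medians of 830 UMIs in WT and 1207 in AKO, and had the most mitochondrial UMIs (medians 4.32% and 5.98%), where cells of at least 15% had 0.182% and 0.269%. Their 13 fibroblast markers summed to 11952 CPM in WT and 2596 CPM in AKO, against 1502 and 1093 CPM in cells of at least 10%. Without the collagen-rich cells, the members' level under 5% over that from 10% went from 0.661 to 0.810 in WT and from 1.0 to 1.02 in AKO. In cells of at least 2000 UMIs it was 0.160 (0.100 to 0.242) in WT and 1.09 (1.002 to 1.18) in AKO, but the low cells were then 7 in WT, 5 of them collagen-rich, with 22 member UMIs, and 44 in AKO, 2 of them collagen-rich. The part of depth, mitochondrial share and fibroblast transcripts in these levels was not tested.

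Along RP share the members spread more widely than between the libraries, and so did all genes. In cells of at least 15% over cells of 5% to 10%, 21 members were lower past 1.5-fold in WT and 24 in AKO, where 44.2% and 43.2% of all genes were, and 6 and 2 were higher, where 24.0% and 25.7% were. *Bub1* fell from 72.1 to 8.49 CPM in WT, a ratio of 0.118 (0.0654 to 0.196), and from 57.0 to 6.45 CPM in AKO, a ratio of 0.113. *Smc2* had 0.155 and 0.138, *Smc4* 0.190 and 0.135, and *Kif20b* 0.197 and 0.165. In contrast, *Cdca3* went from 121 to 280 CPM in WT, a ratio of 2.31 (2.06 to 2.60), and from 130 to 276 CPM in AKO, a ratio of 2.12 (1.87 to 2.40). *Cdc20*, the activator of the APC/C, had 1.75 and 1.98, *Plk1* 1.60 and 1.33, and *Ube2c* 1.52 and 1.24.

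The WT and AKO ratios had a rho of 0.964 over the 42 members, and 38 lay on the same side of 1 in both libraries. Over all 8151 protein-coding genes the rho was 0.933, and 91.6% lay on the same side. The ratio followed GC content with a rho of 0.862 in WT and 0.869 in AKO over the members, and 0.707 and 0.714 over all genes. Coding length gave -0.591 and -0.538 over the members and -0.226 and -0.206 over all genes. *Ckap2*, which was higher in AKO, had 0.603 in WT and 0.526 in AKO along RP share. The part of GC content in these ratios was not tested.

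**Figure D5:**
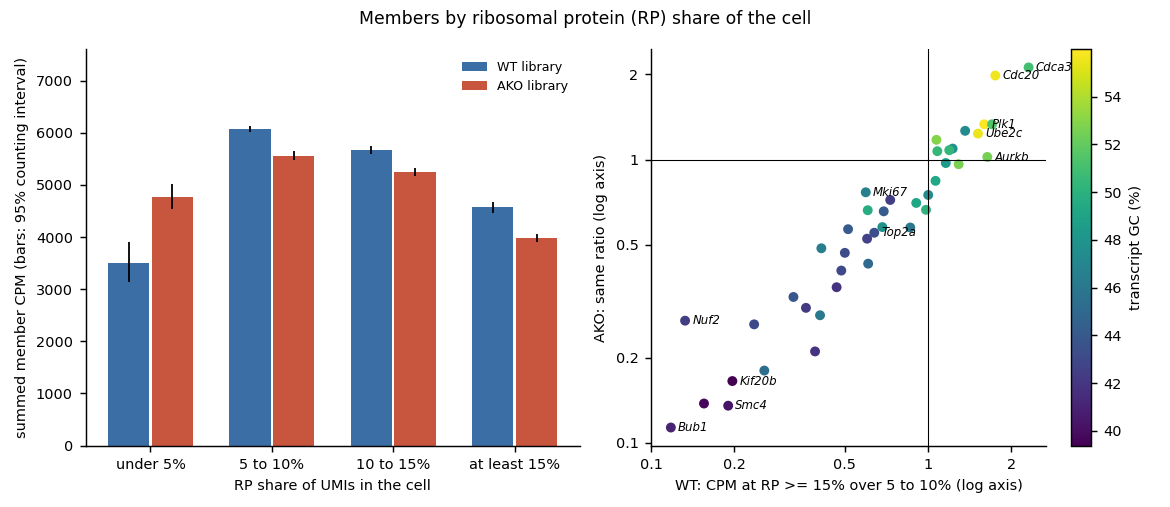
Left, summed member CPM by RP share of the cell in WT and AKO (bars from 0, with exact 95% counting intervals). Right, each member's CPM in cells of at least 15% over cells of 5% to 10% RP share in WT and AKO (log axes), coloured by transcript GC content; low-GC members such as *Bub1* and *Smc4* lie at the lower left and *Cdc20* and *Cdca3* at the upper right (rho 0.964).

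Cells under 5% RP share gave another order. Ranked in AKO, where those cells held 1551 of the members' UMIs against 343 in WT, the members highest in them relative to cells of at least 10% were *Cenpe* (2.68, 1.90 to 3.70), *Mki67* (2.65, 2.05 to 3.38), *Kif20b* (2.63), *Hmmr* (2.59), a hyaluronan receptor of the spindle, and *Anln* (2.52), the anillin of the cleavage furrow. The lowest were *Aurka* (0.25), *Ube2c* (0.252, 0.183 to 0.339), *Cks2* (0.330), *Birc5* (0.380) and *Cdca8* (0.389). In WT the first 5 stood at 1.43, 1.31, 1.44, 0.756 and 1.40, each from 17 UMIs or fewer in the low cells, and the last 5 at 0.133, 0.238, 0.248, 0.0740 and 0.267, from 1, 11, 6, 1 and 5 UMIs, so that these WT values are of low precision. *Nusap1* and *Ndc80* had 0 UMIs there in WT, for which the exact interval reaches 37.7 CPM. Past 1.5-fold 18 members were lower and 16 higher in AKO, against 43.2% and 32.0% of all genes, and 21 and 5 in WT, against 46.2% and 29.6%. The rho with coding length was 0.784 in AKO and 0.652 in WT over the members, and 0.476 and 0.377 over all protein-coding genes. With GC content it was -0.645 and -0.557 over the members, and -0.341 and -0.295 over all.

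Within bins of RP share the comparison of the libraries kept its direction from 5% upwards. The summed ratio of AKO over WT was 0.916 (0.900 to 0.932) at 5% to 10%, 0.925 (0.907 to 0.944) at 10% to 15% and 0.872 (0.845 to 0.899) from 15%, against 1.36 (1.21 to 1.53) under 5%. Without the collagen-rich cells the ratio under 5% was 1.12 (0.994 to 1.26), across 1 by counting error, and those from 5% upwards were 0.889, 0.907 and 0.876. Under 5%, 21 members were higher past 1.5-fold and 1 lower, where 36.6% and 25.4% of all genes were. Without the collagen-rich cells these counts were 14 and 2, where 32.8% and 25.7% of all genes were, and 22 of the members then had 5 or fewer UMIs in WT. Past 1.5-fold 4, 5 and 11 members were lower in the 3 bins from 5%, where 6.12%, 8.16% and 16.0% of all genes were, and 1, 0 and 1 were higher, where 7.3%, 7.52% and 9.86% were. *Kif20b*, at 0.50, 0.516 and 0.421, *Smc4*, at 0.615, 0.568 and 0.438, and *Cenpe*, at 0.568, 0.635 and 0.474, were lower past 1.5-fold in each of the 3 bins. *Mki67* had 0.572, 0.632 and 0.735. In all, 18 members were below 1 in each bin from 5%, where 27.9% of all genes were, and 6 were above, where 29.7% were. The 6 were *Plk1* (1.36, 1.28 and 1.13), *Aurka*, *Birc5*, *Ckap2*, *Ccnb1* and *Nuf2*. The intervals of *Ccnb1* and *Nuf2* reached across 1 in each bin, that of *Aurka* from 10%, and those of all 6 from 15%. The rho of the ratio with GC content over the members was 0.560, 0.536 and 0.525 in the 3 bins.

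By depth, the summed ratio was 0.832 (0.747 to 0.929) in cells of 500 to 1000 UMIs, 0.914 (0.822 to 1.02) up to 2000, 0.823 (0.794 to 0.854) up to 5000, 0.835 (0.821 to 0.850) up to 10000 and 0.929 (0.910 to 0.949) above. All 5 were below 1, and that of 1000 to 2000 UMIs reached across it. In cells of 5000 to 10000 UMIs 11 members were lower past 1.5-fold, where 15.9% of all genes were.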

How the data were processed

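Single-cell RNA-seq (inDrop) of 1 WT and 1 AKO library was analysed. The files deposited by the authors hold UMI counts, not normalized, with 1 value for each gene in each barcode; per the methods they were made with a published inDrop pipeline. The submitters' processing notes name Seurat 2.3.4 and mm10. The aligner and annotation of the single-cell tables are not given in the sources used here. Every measurement column was assigned to a library, with 0 columns of no sample. Gene identifiers were matched without their version to GENCODE names for GRCm38 (all 42 members; 39 with version).

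Barcodes with at least 500 UMIs and at most 20% mitochondrial UMIs were kept. CPM is UMIs for every 1000000 UMIs of the summed kept cells. Intervals (95%) were exact Poisson for CPM, conditional binomial for ratios and Clopper-Pearson for shares of cells; they cover counting error only, and UMIs of 1 cell are not independent. With 1 library per group no test was run. Genes needed 200 UMIs over both libraries, or 200 in the library for comparisons within it. Cells were thinned to 2000 UMIs for co-variation and shares of cells. Genes were named as the members past 1.5-fold, the extremes of each ratio, and the 10 genes most like the members' sum. Pairs of close relatives, *Mki67*, *Top2a*, *Pcna*, *Lin28a* and the genes with the most UMIs in the 2 other lists were named as well. Some genes were named outside this rule, such as the condensin genes that are not members. The members, lists and this rule were chosen with earlier results of these data known. Of the members' UMIs the files give 19 in WT and 8 in AKO as ambiguous.

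Scrublet, run in Scanpy 1.11.5, marked 27 WT (1.46%) and 18 AKO (1.11%) barcodes as doublets, which were kept and left out in an alternative. Alternatives changed the cell filters, the total, the scaling, the fold, the thinning and the cells used. Scripts (NumPy 2.4.6 and pandas 2.3.3 under Python 3.11.15, with SciPy 1.17.1) were tested on simulated data. Promoters were taken from RefSeq (GRCm38.p6).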

Additional observations from a re-analysis of the deposited data

Results flagged for a closer look

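Barcodes outside the limits on cells, which were used only where the limits were dropped as an alternative, also held UMIs of the members. In barcodes under 500 UMIs the summed member level was 4617 CPM (4418 to 4822) in WT and 4268 CPM (4113 to 4427) in AKO, and the part of free RNA from other cells in these values was not tested. In the 15 AKO barcodes over the mitochondrial limit it was 3511 CPM (2589 to 4655), and the 1 WT barcode over it held 0 member UMIs, for which the exact interval reaches 2989 CPM. All of these lay below the summed level of the kept cells of the same library.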

How the results depend on the processing

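Of 76 alternative values, 37 kept their direction and stayed close to the reported value, 38 moved and 1 reversed; those by RP share bin, with a GC-centred ratio, of cells from 15% over 5% to 10% and over all thinnings were chosen after seeing the data, and the cause was not tested. The summed ratio of AKO over WT (0.886) stayed below 1 under these alternatives, though not in cells under 5% RP share (1.36, and 1.12 without collagen-rich cells, added after seeing the data) or collagen-rich cells (1.56): 0.866 without collagen-rich cells, 0.835 in cells of 5000 to 10000 UMIs, 0.916, 0.925 and 0.872 in RP shares of 5% to 10%, 10% to 15% and from 15%, 0.856 with median of ratios scaling and 0.849 as a mean per cell. Lower members (6) were 15 at a ratio of 0.8 or less, 1 at 2-fold, 11 in cells of 5000 to 10000 UMIs, 11 from 15% RP share and 1 after GC centring; higher members (0) were 2 at 25% or more above 1 and 1 each at 5% to 10% and from 15% RP share.

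Cells under 5% over those from 10% RP share stood at 0.661 in WT and 1.0 in AKO; over UMIs outside RP genes 0.585 and 0.887, from 2000 UMIs 0.160 (7 cells, 5 collagen-rich) and 1.09, at 5000 to 10000 UMIs 0.0665 and 1.17 (from 2 WT cells, both collagen-rich, and 1 AKO cell), and without collagen-rich cells 0.810 in WT. As the lowest over the highest quartile of RP share the WT value reversed to 1.24, and AKO stood at 1.35; the quartile holds cells above 5% as well. Cells from 15% over those of 5% to 10% (0.752 and 0.716) gave 0.834 and 0.791 outside RP genes, and in WT 0.675 at 5000 to 10000 UMIs and 0.728 without collagen-rich cells.

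The summed ratio of the highest over the lowest 25% of cells (1.94 in WT, 2.22 in AKO) was 1.71 and 1.84 when thinned to 1000 UMIs, 2.29 and 3.03 for the outer 10% of cells and 1.78 in WT without collagen-rich cells. The share of high cells (5.6% and 4.32%) was 11.5% and 6.41% at 1000 UMIs and 3.45% and 1.85% without thinning. At 1000 UMIs and without thinning the WT interval lay wholly above the AKO interval, where those of the reported draw overlapped. The share was 7.37% in the highest WT draw and 2.70% in the lowest AKO draw. No paired analysis was possible because the labels give no shared replicate numbers and each group has 1 library. With 1 library a genotype the spread between replicates is not known, and low RP cells hold few UMIs of most members.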
